A study of Rattus norvegicus with 43 samples.

Results

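Solute carriers are a large group of membrane transport proteins, and the array measured 115 of their genes in 3 organs (liver, lung, mammary gland) of retinoid-treated female Sprague-Dawley rats. Members were all genes with a symbol that begins with Slc and a digit, named by a probe set with 1 gene symbol (Slc6a6, Slc2a2, Slc2a4, Slc10a1 and Slc25a20 were left out). They are 115 of 4736 genes so named, in 37 families, and where a gene had several probe sets the one of highest mean signal was used. By family they were sorted into 13 substrate classes, of which the largest hold exchangers of bicarbonate, chloride, protons or calcium (20 genes), carriers of neurotransmitters, creatine and vesicle content (19 genes) and carriers of amino acids and peptides (13 genes).

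Rats of an outbred strain were treated for 7 days from 100 days of age, and normal tissue was then taken. Targretin, the retinoid X receptor agonist bexarotene, was gavaged at 60 mg per kg of body weight. The diet carried either 9-cis retinoic acid (9cRA, which binds retinoic acid receptors as well as retinoid X receptors) at 100 mg per kg or the synthetic retinamide 4-hydroxyphenylretinamide (4HPR) at 782 mg per kg. The untreated group received diet only, with no gavage control named in the labels, so agent, dose and route cannot be told apart. The 43 arrays, 1 per sample, form 12 groups of organ and agent: 4 arrays in each of 7 groups, and 3 arrays in lung on diet, mammary gland with 4HPR and every organ with Targretin. Whether the arrays within a group stem from different animals is not stated in the labels, so p-values measure the spread between arrays, which may be in part technical.

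Solute carriers move substances across membranes down a gradient or coupled to the movement of sodium, protons or a second substrate. In liver they are known for carrying iron, sugars, amino acids, fatty acids, nucleosides and organic ions between blood and hepatocyte. In the mammary gland and lung, others feed epithelium and fat with glucose and amino acids or move chloride across the epithelium. Targretin is an agonist of retinoid X receptors, which are nuclear receptors. Retinoid X receptors pair with retinoic acid receptors and with other receptors that respond to fatty acids, sterols and bile acids. Whether any agent acted through such receptors here was not tested.

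Values are MAS5 signals on a linear scale, and each difference is a log2 difference of signal plus a pseudocount of 38.3, with its standard error from limma; a list of signals gives the arrays of a group, and a single signal is a mean ± SD. Folds are on that same scale, which understates the change of dim genes. Of the 115 genes, 91 liver, 89 lung and 88 mammary gland values were tested, and 78 genes were tested in all 3 organs; 17 passed the filter on low signals in no organ and have no test. Among those 17 were kidney and nerve carriers such as Slc12a1, the sodium-potassium-chloride cotransporter of the kidney, Slc5a2, the kidney's glucose reabsorber, and Slc17a7, a vesicular glutamate carrier. The median signal per array ranged from 266.9 to 390.6 for liver, from 470.5 to 636.6 for lung and from 348.4 to 442.9 for mammary gland. Lung epithelium markers summed to 273490 to 304294 on the diet lung arrays and to at most 14676 on the other diet arrays, and adipocyte markers to 190549 to 270354 in mammary gland and at most 21417 elsewhere on diet. Summed hepatocyte markers stood at 653124 to 766012 in liver, but also at 104867 to 157494 in mammary gland on diet, and in lung at 5789.9, 6085.7 and 46230.2 (diet 2) on diet and at 26552.6 to 152505 (4HPR 3) with 4HPR. A further array, Targretin mammary gland 3, had a summed skeletal muscle signal of 72907 against 1998.9 to 3071 on the diet arrays.

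On diet alone, many carriers differed between organs, in each pair at a share near or below that of all genes. Of 91 members, 48 differed between liver and lung (21 higher in liver, 27 higher in lung), where 59.5% of all genes tested did (16.8% higher in liver, 42.7% in lung). Between mammary gland and lung 37 differed (12 higher in mammary gland, 25 in lung), against 43.9% of all genes (18.8% and 25.1%), and between mammary gland and liver 57 differed (24 higher in mammary gland, 33 in liver), against 62.2% (39.7% and 22.5%). Another scaling moved this balance: after quantile normalization 29 members were higher in liver and 18 in lung, and 17 were higher in mammary gland and 14 in lung. With that scaling the median of all genes went from -0.46 to -0.15 for liver minus lung and from -0.11 to 0.09 for mammary gland minus lung. Small differences therefore have no settled sign. The genes named next passed in the same direction under both scalings unless stated. Between organs the filter asked for at least 3 of the 11 diet arrays of any organ, so a gene could enter through the organ where it was high. By the filter per organ, Slc17a1 and Slc7a2 passed in liver only. Slc1a3, Slc22a3, Slc2a1 and Slc7a1 did not pass it in liver, nor Slc30a1 in mammary gland. That these genes differed between organs was thus in part set by the filter.

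Counts of members highest or lowest in 1 organ, here and below, were not made over all genes and so show nothing particular to carriers. Liver stood highest for 20 members, above lung and mammary gland at once. The widest gap was that of Slc27a2, a fatty acid carrier that also activates very long-chain fatty acids, with signals of 1599, 1146, 1061 and 1583 in mammary gland, 1595, 1427 and 1151 in lung and 31658, 32397, 27887 and 30840.2 in liver. Liver was 21.7-fold above lung and 22.5-fold above mammary gland (adjusted p = 7.2e-10 and 2.5e-10), while the others did not differ beyond their spread (adjusted p = 0.83). Slc41a2, a magnesium transporter, gave 9121, 7878, 9668 and 10401 in liver against 504, 420.4 and 368 in lung and 548, 759, 586 and 445 in mammary gland. Its liver signal was 19.9-fold that of lung (adjusted p = 1.7e-09) and 15.1-fold that of mammary gland (adjusted p = 1.5e-09). No array of another organ reached the lowest liver array of either gene.

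Slc40a1, ferroportin, the only known exporter of iron from cells, was 6.65-fold higher in liver than in lung and 5.18-fold higher than in mammary gland (adjusted p = 6.4e-05 and 1.0e-04). Slc37a4, the carrier that brings glucose-6-phosphate into the endoplasmic reticulum for glucose release, was 5.27-fold and 7.88-fold higher, and Slc28a2, a sodium-coupled carrier of purine nucleosides, 6.03-fold and 5-fold. Slc6a13, a transporter of GABA and taurine, was 12-fold and 13.4-fold higher. Slc17a1, a phosphate and urate carrier, was 16.5-fold and 9.39-fold higher, and Slc26a1, a sulphate and oxalate exchanger, 10.9-fold and 9.47-fold. Slc7a2, a carrier of arginine and other cationic amino acids, was 4.29-fold higher than in lung and 8.97-fold higher than in mammary gland. Its relative Slc7a1 ran the other way, 4.49-fold higher in lung and 5.62-fold higher in mammary gland than in liver. Its liver signals were dim, at 28.3, 70.9, 20.6 and 22.9. A further probe set of Slc7a1 gave -0.09 for liver minus lung (limma, adjusted p = 0.88), so that difference rests on the set used. For mammary gland minus liver it gave 1.48 (adjusted p = 0.0037). Among the 7 tested carriers of organic ions, Slc22a18 was 4.74-fold and 5.03-fold higher in liver (adjusted p = 7.1e-08 and 1.9e-08).

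A further 20 members were lowest in liver. Slc1a3, a glutamate and aspartate transporter, gave 7872, 8587, 8807 and 6328 in mammary gland, 1038, 1250.0 and 1556 in lung and 47.6, 226, 57.9 and 205 in liver. The organs were thus ordered without overlap, with mammary gland 6.04-fold above lung (adjusted p = 1.0e-04) and lung 8.58-fold above liver (adjusted p = 8.4e-06). Slc22a3, an extraneuronal carrier of monoamines and other organic cations, followed the same order, at 1266, 2143, 1979 and 1541 in mammary gland, 311, 166 and 245 in lung and 65.7, 85.9, 44.1 and 34.9 in liver. Slc2a1, GLUT1, the glucose transporter of most cells outside the liver, was 14.7-fold higher in mammary gland and 7.74-fold higher in lung than in liver (adjusted p = 3.3e-08 and 1.2e-06). Its difference between mammary gland and lung (0.92 ± 0.28, adjusted p = 0.018) did not pass without diet lung 2 (adjusted p = 0.073) or diet mammary gland 3 (adjusted p = 0.054). Slc3a2, the heavy chain shared by several amino acid exchangers, was 4.46-fold higher in lung and 4.04-fold higher in mammary gland than in liver. Slc6a8, the creatine transporter, was 4.7-fold higher in lung and 3.85-fold higher in mammary gland than in liver.

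**Figure D1:**
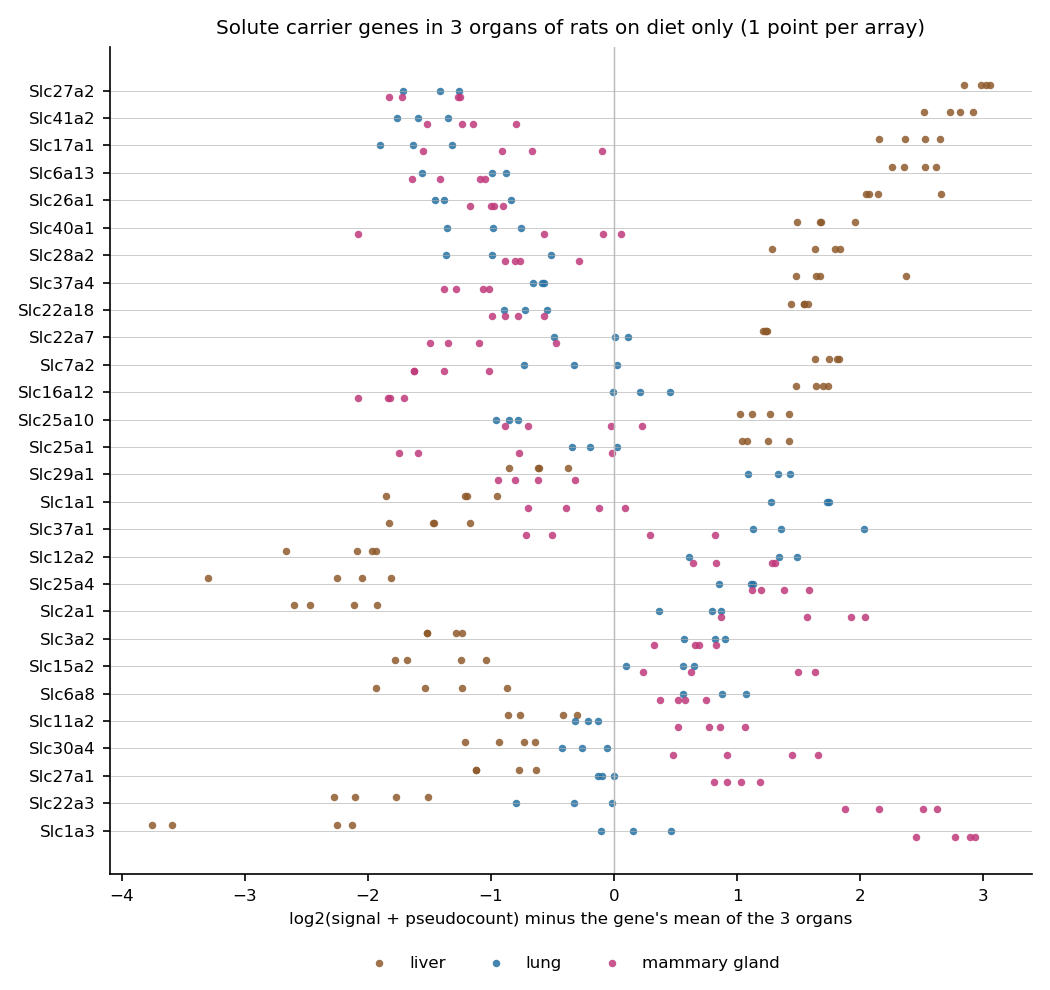
Signals of 28 solute carrier genes on the 11 arrays of rats on diet, as log2(signal + 38.3) minus the gene's mean of the 3 organs (horizontal axis); each point is 1 array and each row 1 gene, so rows show differences between organs and not levels between genes. Points of liver lie to the right of those of the other organs for Slc27a2 and Slc41a2 and to the left for Slc1a3 and Slc22a3.

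Among the mitochondrial carriers, 2 that exchange ADP for ATP showed different organ patterns. Slc25a4 gave 8038, 6132, 5819 and 6982 in mammary gland, 5801, 4835 and 5850.0 in lung and 236, 728, 526 and 612 in liver, so that lung was 10.5-fold and mammary gland 12.8-fold above liver (adjusted p = 3.8e-07 and 6.6e-08). Slc25a5, a gene singled out after its values were seen, gave 22305, 19980.4, 20311 and 19193 in mammary gland, 14244, 13103 and 16003 in lung and 18138, 19084, 18786 and 19723 in liver. Its differences were 0.39 ± 0.12 for liver minus lung and 0.11 ± 0.11 for mammary gland minus liver, and the second did not pass (adjusted p = 0.40). The first passed (adjusted p = 0.011) but not after quantile normalization (adjusted p = 0.211) or without diet lung 3 (adjusted p = 0.067). Of the 11 mitochondrial carriers tested, 4 were higher in liver than in lung, 5 were lower and 2 did not pass. Slc25a10, the dicarboxylate carrier, was 4.21-fold higher in liver than in lung (adjusted p = 7.5e-06). Slc25a1, which exports citrate for fat synthesis, was 2.58-fold higher in liver than in lung and 4.7-fold higher than in mammary gland (adjusted p = 0.0031 and 3.0e-05).

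Mammary gland stood highest for 11 members and lung for 8. Of the 7 metal carriers, 2 were higher and 1 lower in mammary gland than in lung, and 4 did not pass. Slc30a4, a zinc transporter known for loading zinc into milk, gave 1189, 2735, 2363 and 1624 in mammary gland, 617, 698 and 809 in lung and 342, 527, 421 and 491 in liver, and no array overlapped between mammary gland and the others. Slc11a2, DMT1, the importer of ferrous iron, was 2.03-fold higher in mammary gland than in lung, and Slc30a1, which exports zinc from cells, was 3.66-fold higher in lung (adjusted p = 9.3e-04 and 2.6e-04). Slc27a1, a fatty acid carrier of fat and muscle, was 2.09-fold higher in mammary gland than in lung and 3.73-fold higher than in liver. In lung, Slc29a1, an equilibrative nucleoside transporter, gave 4984, 6331 and 5907, against 1502, 1790.3, 1274 and 1512 in liver and 1502, 1194, 1312 and 1863 in mammary gland (adjusted p = 1.8e-06 and 4.9e-06). Slc1a1, a glutamate and cysteine transporter, was 7.39-fold higher in lung than in liver and 3.64-fold higher than in mammary gland.

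For some members the order of organs depended on the probe set. Counted over the organ pairs, 58 results of further probe sets belonged to a member that passed on the probe set used; 36 of them passed in the same direction, 11 had the same sign without passing and 11 had the opposite sign, 4 of which passed. Those 4 were sets of Slc22a7, an organic anion transporter, for mammary gland minus lung (1.13 against -0.98 on the set used), Slc12a2, the widely expressed sodium-potassium-chloride cotransporter, for mammary gland minus liver (-1.34 against 3.18), Slc25a11, the mitochondrial carrier of oxoglutarate and malate (0.60 against -1.80), and Slc6a4, the serotonin transporter (-0.93 against 0.99). The organ order of these 4 genes is therefore uncertain. Among genes described above, further sets had the opposite sign without passing for Slc22a3 in liver minus lung (0.69 against -1.54), Slc1a3 in mammary gland minus lung (-0.35 against 2.60) and Slc2a1 in mammary gland minus lung (-0.88 against 0.92). For Slc1a1 in mammary gland minus liver, 2 further sets did so (-0.63 and -0.13 against 1.02), so these orders too rest on the probe set used.

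In liver, few carriers changed with any agent, and falls of a magnesium and an iron transporter were the firmest results. With Targretin 4 of 91 members fell, 0 rose and 87 did not pass, a share below the 10.5% of all genes that passed (4.5% higher, 5.97% lower). With 9cRA 1 rose and 5 fell (background 5.04%, 1.98% higher and 3.06% lower), and with 4HPR 3 rose and 1 fell (background 2.8%, 1.16% higher and 1.64% lower), or 3 and 3 after quantile normalization. Median differences were 0.00 for members and -0.01 for all genes with Targretin, 0.03 and -0.02 with 9cRA, and -0.12 and -0.10 with 4HPR. Of the 7 metal carriers tested in liver, 2 fell with Targretin, 2 with 9cRA and 1 with 4HPR, and none rose. All calls of single genes are by limma with Benjamini-Hochberg adjustment over all probe sets tested, at an adjusted p under 0.05, and the 3 comparisons share the diet arrays. Without Targretin liver 2 the count with Targretin was 2, and without 4HPR liver 1, diet liver 3 or diet liver 4 that with 4HPR was 2.

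Slc41a2 gave 9121, 7878, 9668 and 10401 on the diet arrays, 2279, 1787 and 2138 with Targretin, 3339, 5036, 4127 and 5579 with 9cRA and 6692, 6859, 6678 and 5521 with 4HPR. No array of any treated group reached the lowest diet array, and Targretin arrays were lowest. Slc41a2 fell by 2.14 ± 0.17 with Targretin (4.42-fold, adjusted p = 2.4e-07) and fell by 1.05 ± 0.16 with 9cRA (2.07-fold, adjusted p = 0.0012). With 4HPR the difference was -0.52 ± 0.16 and did not pass (adjusted p = 0.083). Outside liver, where its signal was low, the Targretin difference was -1.09 ± 0.41 in lung and -0.90 ± 0.30 in mammary gland and did not pass (adjusted p = 0.13 and 0.058). In mammary gland it passed after quantile normalization (-1.01, adjusted p = 0.0291) and with the replicate block (-0.92, adjusted p = 0.0483). On diet Slc41a2 was 15.1-fold higher in liver than in mammary gland. Summed hepatocyte markers in mammary gland were 20825 to 38088 with Targretin against 104867 to 157494 on diet. In lung they were 7827.8 to 10055.6 with Targretin against 5789.9 to 46230.2 on diet. Their part was not tested.

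Slc40a1 gave 4138, 2977, 3387 and 3411 on diet, 1336, 1445 and 1553 with Targretin, 1647, 1593, 1232 and 1696 with 9cRA and 1360.4, 1947, 2381 and 1993 with 4HPR. All 11 treated arrays lay below all 4 diet arrays. Ferroportin fell by 1.24 ± 0.18 with Targretin (adjusted p = 2.2e-04), fell by 1.15 ± 0.17 with 9cRA (adjusted p = 0.0012) and fell by 0.86 ± 0.17 with 4HPR (adjusted p = 0.01). It was the single member that passed with all 3 agents, and its second probe set fell as well, by 1.32, 0.96 and 0.93. Ferroportin is also known from macrophages, and 5 measured of 10 macrophage markers summed to 4889.7 to 7578.2 in liver with Targretin, 6120.3 to 10262 with 9cRA, 6091.2 to 9211.4 with 4HPR and 8539.1 to 9938.6 on diet; their part was not tested. In lung and mammary gland Targretin did not move it past the threshold, with differences of -0.75 ± 0.40 and -0.19 ± 0.42. Metal carriers of the liver other than Slc40a1 and Slc41a2, among them Slc30a1 with -0.13 ± 0.64 for Targretin, did not pass with any agent.

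Slc28a2 was higher with both dietary agents and lay below diet with Targretin. It gave 3565, 4109, 2779 and 3985 on diet, 1952, 2210.0 and 2239 with Targretin, 8101, 10279.8, 11093 and 6373 with 9cRA and 9240.5, 11278, 5967 and 5324 with 4HPR. The nucleoside carrier rose by 1.29 ± 0.22 with 9cRA (adjusted p = 0.0034) and rose by 1.08 ± 0.22 with 4HPR (adjusted p = 0.013); the second was lost without 4HPR liver 1 (adjusted p = 0.0501) or diet liver 3 (adjusted p = 0.052). With Targretin every array lay below every diet array, and the difference of -0.73 ± 0.24 did not pass (adjusted p = 0.06), although it passed with a replicate block (adjusted p = 0.0318) and without diet liver 3 (adjusted p = 0.0461). Between agents it was the widest difference of all members, -2.02 ± 0.24 for Targretin minus 9cRA (adjusted p = 3.2e-05) and -1.81 ± 0.24 for Targretin minus 4HPR (adjusted p = 9.2e-05).

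The promoters of these 3 genes are shown because each had a change in liver that passed in every alternative run; they are RefSeq sequences of the GRCr8 build, 250 bases before to 50 after the annotated start, on the gene's strand. Capitals mark any of the words of 6 bases (AGGTCA, or else GGGTCA, or else AGTTCA, or else GGTTCA), to which nuclear receptors of this kind are known to bind in pairs, on either strand. Slc41a2 lies at chr7:22271063-22271362 on the + strand, Slc40a1 at chr9:55543411-55543710 on the - strand and Slc28a2 at chr3:129819538-129819837 on the + strand.
Slc41a2: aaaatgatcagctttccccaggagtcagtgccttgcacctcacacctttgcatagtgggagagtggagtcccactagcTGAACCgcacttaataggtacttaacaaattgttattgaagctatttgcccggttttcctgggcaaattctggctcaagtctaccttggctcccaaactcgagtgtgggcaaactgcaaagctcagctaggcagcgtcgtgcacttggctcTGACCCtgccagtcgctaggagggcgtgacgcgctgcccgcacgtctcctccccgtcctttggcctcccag
Slc40a1: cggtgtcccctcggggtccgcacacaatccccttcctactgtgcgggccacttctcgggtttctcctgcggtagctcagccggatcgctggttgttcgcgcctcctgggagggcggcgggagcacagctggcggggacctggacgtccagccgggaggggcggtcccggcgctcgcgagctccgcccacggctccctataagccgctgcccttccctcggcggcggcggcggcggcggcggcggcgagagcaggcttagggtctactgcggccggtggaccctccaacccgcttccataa
Slc28a2: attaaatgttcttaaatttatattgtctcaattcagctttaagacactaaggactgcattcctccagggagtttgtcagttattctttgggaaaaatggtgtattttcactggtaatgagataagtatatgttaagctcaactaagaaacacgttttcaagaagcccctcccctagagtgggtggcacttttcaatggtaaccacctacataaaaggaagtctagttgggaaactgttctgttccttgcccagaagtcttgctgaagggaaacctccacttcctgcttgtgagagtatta
The Slc41a2 promoter holds 2 such words, both read on the other strand (GGTTCA at bases 79 to 84 and GGGTCA at bases 230 to 235, counted from 1), and the others hold none. Such a word was present in 43.8% of 27457 promoters searched and in 49 of the 97 members with a promoter in the table (50.5%). A pair of them in the same direction with 1 to 5 bases between was present in 0.958% of all promoters and in 0 of the 97. A match is a description of the letters, and the lack of one says only that they are not in this window.

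The other calls in liver were single-agent ones. Slc37a4 gave 5918, 6807, 11078 and 6651 on diet and 4122, 4113 and 4665 with Targretin, without overlap, and fell by 0.78 ± 0.19 (adjusted p = 0.013). With 9cRA and 4HPR it stayed among the diet arrays, at 7265 ± 1285 and 6869.9 ± 885. Slc16a12, a creatine transporter of the monocarboxylate family, gave 1039, 1218, 1167 and 1253 on diet and 507, 502 and 601 with Targretin and fell by 1.07 ± 0.31 (adjusted p = 0.031). Leaving out any 1 Targretin array ended that call (adjusted p = 0.0544 to 0.107), as did leaving out diet liver 2, 3 or 4, and the call of Slc37a4 was lost without Targretin liver 1 (adjusted p = 0.0532) or 2 (adjusted p = 0.0576).

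With 9cRA, Slc6a13 gave 1783, 1779, 1649 and 1710.0 against 2966, 2771, 3339 and 3546 on diet and fell by 0.85 ± 0.14 (adjusted p = 0.0026), while the Targretin arrays, at 2992, 3407 and 3125, lay among those of diet. Slc12a2 gave 197, 26.1, 38.9 and 32.1 with 9cRA and 332, 294, 185 and 324 on diet, so 1 array of each group overlapped with the other. It fell by 1.73 ± 0.41 (limma, adjusted p = 0.019). Its diet signals of 332, 324 and 294 were its highest in liver, so it may have passed the filter through the diet group. Such an entry favours a fall. Slc22a5, the high-affinity carnitine transporter, gave 575, 383, 347 and 1042 with 9cRA and 1161, 1267, 1918 and 1028 on diet, again with overlap, and fell by 1.23 ± 0.32 (adjusted p = 0.031). The last 2 calls were lost in 6 of 8 fits that left out 1 array, with adjusted p up to 0.0635 for Slc12a2 and 0.104 for Slc22a5. A further probe set of Slc12a2 had the opposite sign (0.32) and another the same (-1.29), neither passing.

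With 4HPR, Slc3a2 gave 3654, 3804, 4607 and 4915 against 2623, 2144, 2522 and 2136 on diet, without overlap, and rose by 0.83 ± 0.18 (adjusted p = 0.018); its second probe set rose by 0.87. Slc13a3, a sodium-coupled carrier of succinate and other dicarboxylates, gave 932, 703, 518 and 922 against 368, 472, 201 and 303 and rose by 1.13 ± 0.29 (adjusted p = 0.048). Without 4HPR liver 4 and diet liver 2, among 4 arrays doubted in earlier work on these data, neither passed (adjusted p = 0.0791 and 0.0611), and Slc3a2 was also lost without 4HPR liver 3, diet liver 2 or diet liver 4 (adjusted p = 0.0543 to 0.0622). Slc13a3 was also lost in 6 of 8 fits that left out 1 array.

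**Figure D2:**
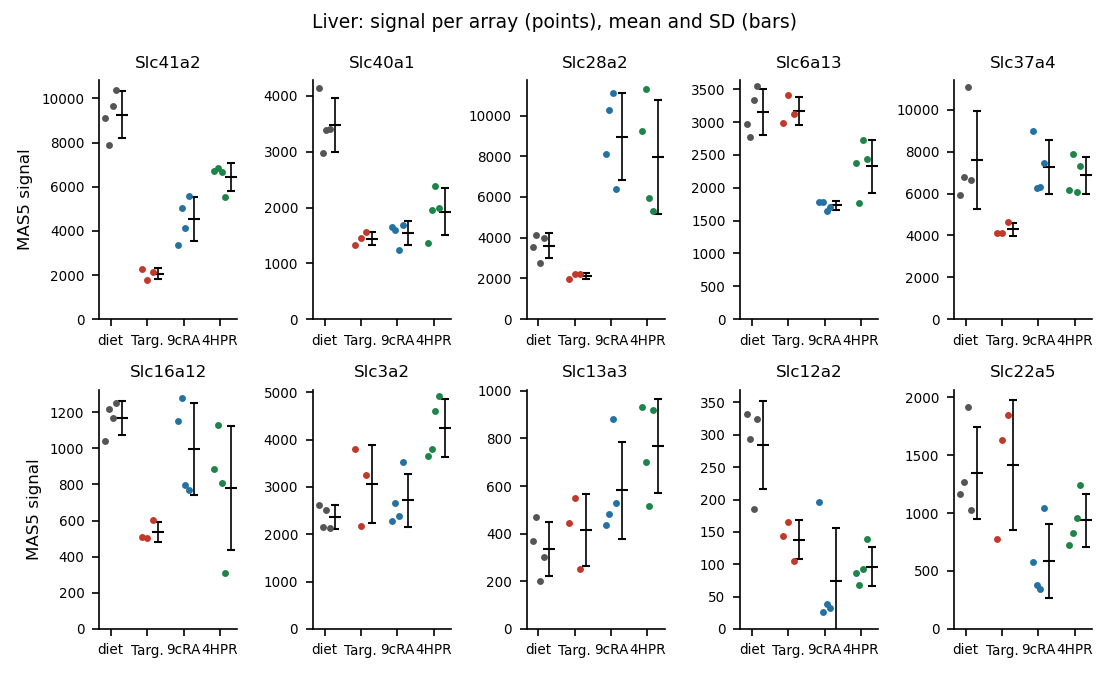
MAS5 signal of the 10 solute carrier genes that passed against diet in liver with at least 1 agent; points are arrays (4 per group, 3 for Targretin) and bars the mean and SD, with each vertical axis from 0 (the lower bar of Slc12a2 with 9cRA ends at the axis). All treated arrays lie below the diet arrays for Slc41a2 and Slc40a1, and Slc28a2 is above diet with 9cRA and 4HPR only.

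Set beside each other in liver, Targretin parted from the other agents for several carriers, with doses and routes that also differed. Targretin minus 9cRA gave 3 members higher and 4 lower (background 5.6%, 3% higher and 2.6% lower), and Targretin minus 4HPR 3 higher and 4 lower (background 7.16%, 3.85% higher and 3.31% lower), or 4 higher and 3 lower after quantile normalization. Without Targretin liver 1 both counts were 4, as was the first without Targretin liver 2 or 9cRA liver 1 and the second without Targretin liver 3. Between 9cRA and 4HPR 0 of 91 members passed in the test of limma, against 0.141% of all genes. At an unadjusted p under 0.05 lay 12 of the 91 members and 404 of 3534 genes. For Slc28a2 that last difference was 0.21 with a 95% interval of -0.26 to 0.68, for Slc40a1 -0.29 (-0.65 to 0.07) and for Slc41a2 -0.53 (-0.86 to -0.20). Slc41a2 was lower with Targretin than with 9cRA (-1.09 ± 0.17, adjusted p = 3.9e-04) and than with 4HPR (-1.62 ± 0.17, adjusted p = 5.6e-06). Slc40a1, in contrast, passed in none of these 3 comparisons, the intervals being -0.47 to 0.30 for Targretin minus 9cRA and -0.76 to 0.01 for Targretin minus 4HPR.

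The sugar carrier Slc2a5 and the fatty acid carrier Slc27a2 differed between Targretin and both dietary agents without passing against diet in liver. Slc2a5, the fructose transporter, gave 493, 307 and 829.9 with Targretin, 1498, 891, 894 and 1703 with 9cRA and 809, 1475, 1411 and 1344 with 4HPR, against 671, 474, 882 and 853 on diet. The Targretin difference was -1.19 ± 0.32 to 9cRA and -1.22 ± 0.32 to 4HPR (adjusted p = 0.036 and 0.026), and the arrays overlapped with those of 4HPR. The signal of Slc27a2 under Targretin exceeded that under 9cRA by 0.54 ± 0.13 and that under 4HPR by 0.60 ± 0.13 (adjusted p = 0.021 and 0.0088). Slc25a30, a mitochondrial carrier of the uncoupling protein group, gave 1309, 2198 and 1842 with Targretin and 618, 402, 642 and 644 with 4HPR, a difference of 1.56 ± 0.29 (adjusted p = 0.0024). Slc16a1, MCT1, the lactate and ketone body transporter, was higher with Targretin than with 4HPR by 0.96 ± 0.26 (adjusted p = 0.03). For Targretin minus 9cRA, Slc6a13 differed by 0.86 ± 0.15 and Slc22a5 by 1.26 ± 0.35, and Slc37a4 was lower, with -0.74 ± 0.19 (adjusted p = 0.028). Against 4HPR, Slc37a4 was lower too (-0.66 ± 0.19, adjusted p = 0.043), a call lost in 11 of 12 alternatives. Calls of Slc2a5, Slc27a2, Slc22a5, Slc16a1 and Slc37a4 between agents were each lost without at least 1 array, whereas those of Slc28a2, Slc41a2, Slc6a13 and Slc25a30 were kept in all 12 alternatives run.

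In mammary gland, Targretin changed 9 of 88 carriers, with falls of Slc27a2, Slc1a3 and Slc4a7. Of these 9, 6 rose and 3 fell, and 79 members did not pass, against 12.1% of all genes (6.53% higher, 5.59% lower); after quantile normalization 5 rose and 4 fell. The median difference was 0.17 for members and 0.08 for all genes. With 9cRA and with 4HPR limma passed 0 of 88 members and 0% of all genes. At an unadjusted p under 0.05 lay 14 and 3 of the 88 members, and 631 and 80 of 3614 genes. Without diet mammary gland 1, 2 members passed with 9cRA after adjustment.

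Slc1a3 gave 2205, 2896 and 2257 with Targretin against 7872, 8587, 8807 and 6328 on diet and fell by 1.67 ± 0.23 (3.18-fold, adjusted p = 2.8e-04). The groups did not overlap, but the glutamate transporter's other 3 probe sets did not pass, with differences of 0.40, -0.12 and -0.67. Slc4a7, a sodium bicarbonate cotransporter, gave 1301, 1683 and 1119.9 with Targretin and 2479, 3918, 3572 and 2592 on diet and fell by 1.17 ± 0.21 (adjusted p = 0.0036). With 9cRA (1965 ± 331) and 4HPR (2095 ± 159) every array of Slc4a7 also lay below those of diet, without passing (adjusted p = 0.15 and 0.999).

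Slc27a2 gave 794, 109 and 256 with Targretin and 1599, 1146, 1061 and 1583 on diet and fell by 2.04 ± 0.49 (adjusted p = 0.016), a call lost without Targretin mammary gland 2 (adjusted p = 0.0783) or 3 (adjusted p = 0.0533). Beside this fall stands that of the hepatocyte markers: all 14 measured of 15 gave a signal above the filter on at least 3 diet mammary gland arrays, led by Rbp4, which fat cells also express, and Alb, and their sum was 20825 to 38088 with Targretin against 104867 to 157494 on diet. The part of hepatocyte transcripts in the mammary gland results was not tested. In bulk tissue, fewer cells of a type and less RNA per cell cannot be told apart. Of the 9 called members, 2 (Slc27a2, which fell, and Slc25a1, which rose) had a diet signal at least 4 times higher in liver than in mammary gland, and 7 did not, a division made after seeing the data. Without Targretin mammary gland 3, the array with a high skeletal muscle signal, 5 members passed (3 higher, 2 lower), and the part of muscle was not tested. Leaving out Targretin mammary gland 2 gave 4 members and leaving out diet mammary gland 2 or 3 gave 5. The 11 mammary epithelium markers summed to 256413 to 383218 with Targretin against 158197 to 247581 on diet, and the 7 measured of 10 adipocyte markers to 132389 to 199170 against 190549 to 270354; their part was not tested.

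**Figure D3:**
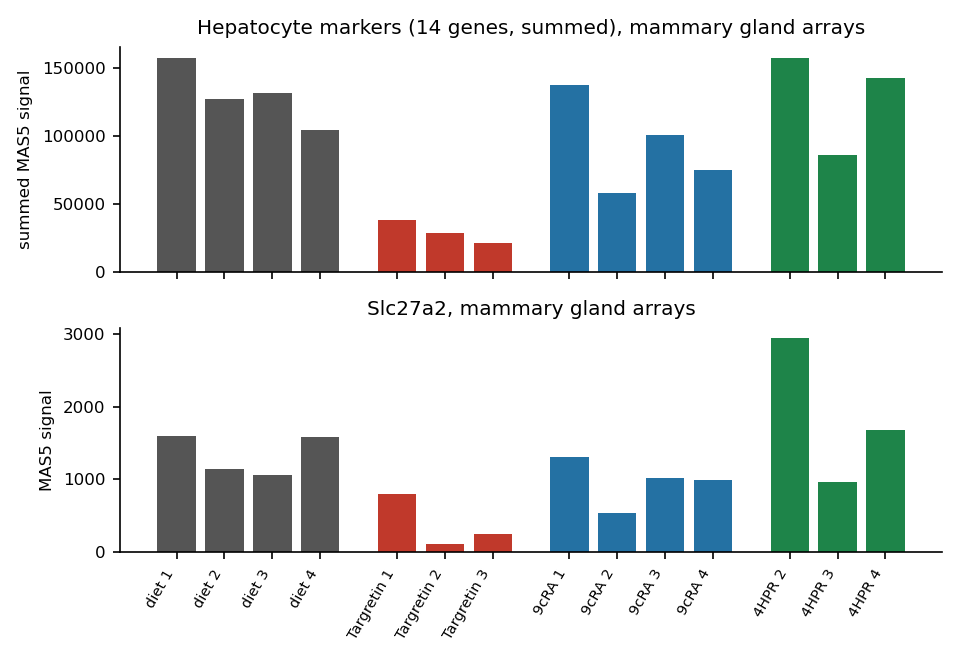
Summed MAS5 signal of 14 hepatocyte markers (upper bars) and signal of Slc27a2 (lower bars) on the 14 mammary gland arrays, 1 bar per array, numbered as in the labels. The Targretin arrays have the lowest marker sums, 20825 to 38088, and 2 of them the lowest Slc27a2 signals.

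The 6 rises in mammary gland fell in 5 classes, with 2 mitochondrial carriers among them. Slc25a11 gave 2614, 2312 and 2714 with Targretin against 1363, 724, 686 and 1267 on diet and rose by 1.36 ± 0.26 (adjusted p = 0.0049), though its second probe set differed by -0.06. Slc35b1, which brings ATP into the endoplasmic reticulum, gave 5969.8, 4525 and 4383 against 2749.8, 2582, 2236 and 2156 and rose by 1.01 ± 0.22 (adjusted p = 0.011), and its second probe set rose by 1.84. Slc25a1 gave 7108, 3144 and 4235 against 3248, 954, 1066 and 1910.1, with overlap, and rose by 1.50 ± 0.45 (adjusted p = 0.042). Of 11 mitochondrial carriers tested, 2 rose and 9 did not pass. Slc27a1, whose fatty acid carrier product is known from fat cells, gave 8742, 5489 and 4458 against 3825, 3170.1, 2944 and 3433 and rose by 0.84 ± 0.25 (adjusted p = 0.038). Slc5a1, SGLT1, the sodium-glucose cotransporter, gave 1410.2, 1469 and 1867 against 863, 675, 777 and 1237 and rose by 0.83 ± 0.24 (adjusted p = 0.036), though its second probe set differed by -0.03. Slc22a2, an organic cation transporter, rose from the dim signals of 196, 82.4, 88.4 and 74.3 to 335, 344 and 295. The difference was 1.36 ± 0.39 (limma, adjusted p = 0.034). Too few diet arrays passed the filter for Slc22a2 to be tested between organs. It therefore entered the mammary gland test with the help of treated arrays, and such an entry favours a rise. The calls of Slc25a1, Slc27a1, Slc5a1 and Slc22a2 were each lost in 5 to 8 of 12 alternatives, while Slc1a3, Slc4a7, Slc25a11 and Slc35b1 passed in all 12. These alternatives did not change the probe set, and the further sets of Slc1a3 and Slc25a11 did not pass.

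**Figure D4:**
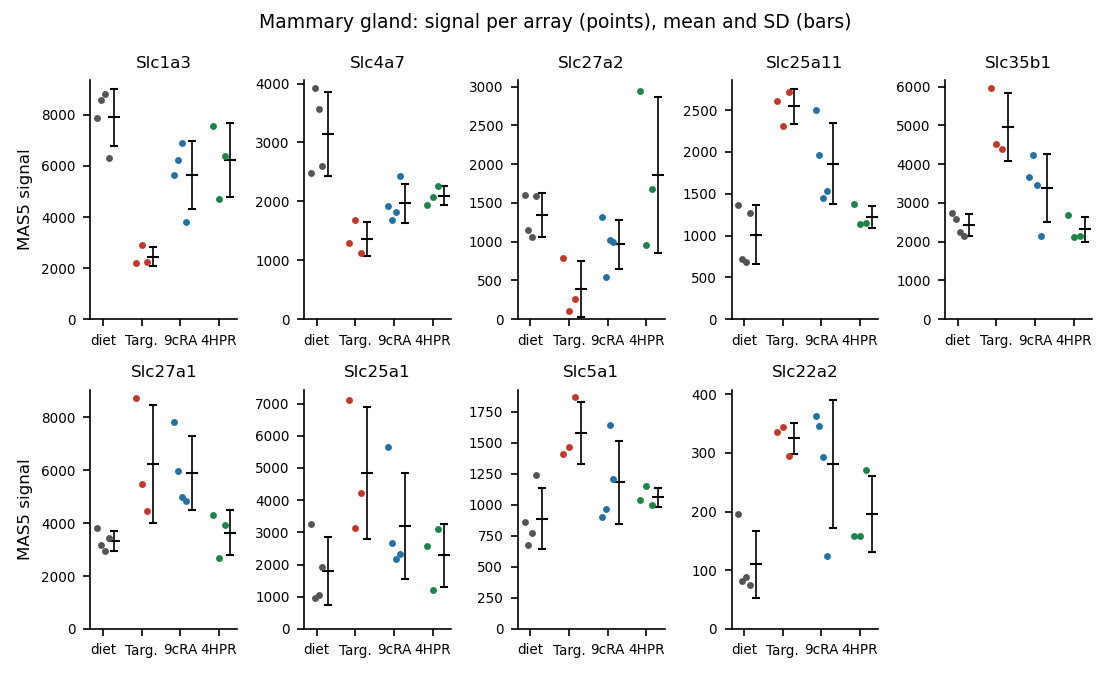
MAS5 signal of the 9 solute carrier genes that passed with Targretin in mammary gland; points are arrays (4 per group, 3 for Targretin and 4HPR) and bars the mean and SD, with each vertical axis from 0. Targretin arrays lie apart from diet in all panels except that of Slc25a1, and 9cRA means lie between those of diet and Targretin.

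In lung, 1 carrier of 89 passed with Targretin, against 2.66% of all genes (1.43% higher, 1.23% lower). Slc6a2, the noradrenaline transporter, which lung endothelium is known to use to clear the amine from blood, gave 1057, 1017 and 953 with Targretin against 474, 499 and 638 on diet. The groups did not overlap, and it rose by 0.87 ± 0.22 (adjusted p = 0.047), but the call was lost in 9 of 11 alternatives (adjusted p = 0.0688 to 0.182). After quantile normalization 0 members rose and 1 fell. Leaving out Targretin lung 3 gave 9 members, and leaving out diet lung 2, the array with a hepatocyte marker sum of 46230.2, gave 4, while 0 passed without Targretin lung 1, Targretin lung 2, diet lung 3 or diet lung 4. Targretin lung 2 had a summed lung epithelium signal of 464415, against 276080 and 284967 on the other Targretin arrays, and an erythroid sum of 117575. The part of these markers in the lung results was not tested.

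Short of the threshold in Targretin lung lay 3 genes named elsewhere here. Slc16a1 gave 702, 199.9 and 639.7 against 887, 1326 and 1503 on diet, a difference of -1.34 ± 0.35, and Slc12a2 gave 1421, 772 and 2007 against 2123, 3546 and 3928, a difference of -1.22 ± 0.32 (adjusted p = 0.054 for the first and 0.054 for the second). Slc29a1 gave 8661, 13149 and 9384 against 4984, 6331 and 5907, a difference of 0.84 ± 0.24 (adjusted p = 0.066). Slc16a1 passed after quantile normalization (adjusted p = 0.0399), with the larger pseudocount (0.0481), without Targretin lung 3 (0.0358) and without diet lung 2 (0.0372). Slc12a2 passed without Targretin lung 3 (adjusted p = 0.0280) or diet lung 2 (adjusted p = 0.0283). With 9cRA and with 4HPR limma passed 0 of 89 members in lung and 0% of all genes. At an unadjusted p under 0.05 lay 7 and 2 of the 89 members, and 393 and 154 of 3498 genes.

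Whether a change differed between organs was tested directly for the 78 members measured in all 3. With Targretin 9 passed the moderated F test of limma, against 11.5% of all genes, with 9cRA 0 (0.323% of all genes) and with 4HPR 0 (0%). At an unadjusted p under 0.05 lay 9 members and 347 of 3093 genes with 9cRA, and 4 members and 183 of 3093 genes with 4HPR. For Slc25a11 the Targretin difference was 1.36 ± 0.26 in mammary gland, 0.32 ± 0.18 in liver and -0.28 ± 0.20 in lung (adjusted p of the difference = 0.00090). For Slc35b1 it was 1.01 ± 0.22, -0.14 ± 0.16 and 0.05 ± 0.16 in that order (adjusted p = 0.0026), and for Slc4a7 -1.17 ± 0.21, -0.10 ± 0.22 and -0.33 ± 0.24 (adjusted p = 0.027, lost in 6 of 48 alternatives, up to 0.103). These 3 changed against diet in mammary gland and did not pass in the other organs. The mammary gland rise of Slc25a11 rests on the probe set used, since its second set differed by -0.06 there.

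Slc16a1 stood at -1.34 ± 0.35 in lung, 0.77 ± 0.39 in mammary gland and 0.16 ± 0.26 in liver (adjusted p = 0.011), although no organ passed by itself. Slc37a4 stood at -0.78 ± 0.19 in liver against -0.08 ± 0.19 in lung and 0.29 ± 0.20 in mammary gland (adjusted p = 0.013). Slc27a2 stood at -2.04 ± 0.49 in mammary gland, -0.58 ± 0.36 in lung and 0.18 ± 0.13 in liver (adjusted p = 0.0091), with the hepatocyte marker values given above, and was lost without Targretin mammary gland 2 (adjusted p = 0.0658). Slc25a30 was 0.53 ± 0.29 in liver and -0.95 ± 0.31 in mammary gland (adjusted p = 0.031). Slc29a1 and Slc6a2 passed by little (adjusted p = 0.047 and 0.048) and were lost in 26 and 31 of 48 alternatives. Without the 4 doubted arrays, the calls of Slc16a1 (adjusted p = 0.137), Slc25a30 (adjusted p = 0.115) and Slc37a4 (adjusted p = 0.0516) were lost as well.

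**Figure D5:**
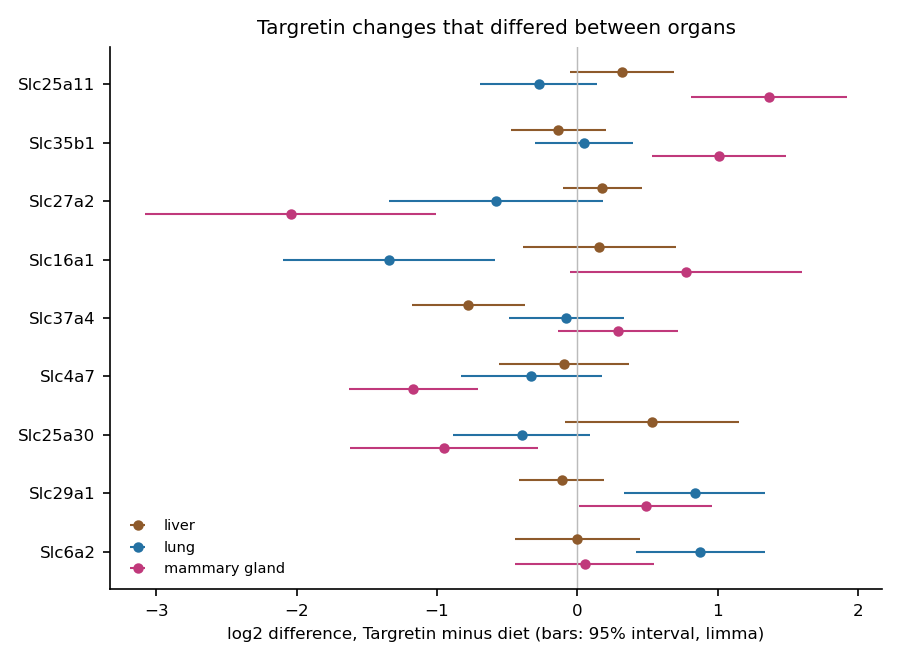
Log2 difference between Targretin and diet in liver, lung and mammary gland (horizontal axis) for the 9 solute carrier genes whose change differed between organs; points are limma estimates and bars their 95% intervals. The mammary gland intervals of Slc25a11 and Slc35b1 lie above 0 and apart from those of liver and lung.

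Over all organs and agents, the probe set used decided part of these calls. Of 13 results of further probe sets for members that passed against diet, 5 passed in the same direction, 4 had the same sign without passing and 4 had the opposite sign. In 9 cases against diet a further set passed where the set used did not. With Targretin in liver these were Slc5a6, a vitamin carrier (-1.21), Slc22a7 (0.53) and Slc1a2, a glutamate transporter (-0.82); with 9cRA in liver they were Slc35b1 (-0.75), Slc22a7 (0.51) and Slc17a1 (-0.86). With Targretin in mammary gland they were Slc25a14 (-1.49), Slc25a10 (1.76) and Slc3a2 (0.76). Between agents in liver, further results for members that passed numbered 2 for Targretin minus 9cRA and 3 for Targretin minus 4HPR. All had the same sign, and 0 passed. For Targretin minus 4HPR a further set of Slc1a2 passed (-0.98) where the set used did not. The genes named from further sets were chosen after their values were seen.

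Transporters outside the group were counted beside these in liver. Of 26 tested there, from the 5 left out carriers and the Slco, Abc and Aqp genes, 4 rose and 4 fell with Targretin, 1 rose and 2 fell with 9cRA, and 0 rose and 3 fell with 4HPR, where 10.5%, 5.04% and 2.8% of all genes passed. Abcb11, the bile salt export pump, rose by 1.15 with Targretin, and Aqp9, the glycerol channel of the hepatocyte, fell by 1.11. The difference between the groups of transporters was not tested.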

How the data were processed

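RNA of liver, lung and mammary gland was hybridised to 1 Affymetrix array per sample. The authors deposited MAS5 signal intensity on a linear scale, per the labels and the submitters' processing notes; trimmed means of 1485 to 1501 per array showed a common scaling. Of 8799 probe sets, 59 controls were left out, and 7018 had 1 gene in the platform annotation, which can be old. Values were used as log2(signal + 38.3), the pseudocount being the 10th percentile. For agents, probe sets above the array's 40th percentile on at least 3 arrays of the organ were tested. Between organs on diet, at least 3 of the 11 diet arrays of any organ sufficed. For organ by agent, the filter had to be passed in all 3 organs. limma 3.58.1 in R 4.3.3 (lmFit, eBayes with trend) was fitted per organ to all 4 groups, on the 11 diet arrays between organs and on 43 arrays for organ by agent, with Benjamini-Hochberg adjustment over all probe sets tested. The fits were tested on simulated data. The number of arrays limits the precision. The labels do not say whether replicate numbers pair arrays, and arrays were treated as unpaired. Median correlations of deviations for arrays of one number were -0.0024, 0.0253 and 0.0128 in liver, lung and mammary gland. Between organs, for one number and agent, the median was 0.06. Above 0.1 lay 0 of 21 pairs in liver, 6 of 18 in lung, 3 of 18 in mammary gland and 15 of 41 between organs. Arrays of unlike numbers were not correlated for reference, so the check cannot decide whether numbers pair arrays.

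Named were members passing against diet, the 5 largest differences each way between agents, between organs the 8 largest each way and up to 2 of smallest p per class, and the 8 smallest p for organ by agent; a member so named may be given elsewhere. Members, lists and tests were chosen with earlier results of these data known. Alternatives were quantile normalization, no filter, a pseudocount of 153.2, a replicate block, leaving out 4 doubted arrays (numbers 2 of diet liver and of Targretin lung, 4 of 4HPR liver and 3 of Targretin mammary gland), leaving out each array and, chosen after seeing the data, leaving out members at least 4 times brighter in liver.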

Additional observations from a re-analysis of the deposited data

Results flagged for a closer look

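Of 113 sets of 4 arrays examined, 7 held an array far from the others, with a gap over 0.829 of the range; chance gives about 1 in 20. Slc12a2 was 196.6 on 9cRA liver 1, where the other 9cRA arrays lay at 26.1 to 38.9. Slc22a2 was 195.5 on diet mammary gland 1 and Slc25a1 5639.8 on 9cRA mammary gland 1, the highest of their groups. Slc26a1 was highest on diet liver 3, at 7166.1, and Slc7a1 on diet liver 2, at 70.9. Slc41a2 was lowest on 4HPR liver 4, at 5520.7. The summed hepatocyte markers reached 152505 on 4HPR lung 3.

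The change with Targretin differed between organs for 9 carriers, by limma's moderated F test. Adjusted p was 0.00090 for Slc25a11, 0.0026 for Slc35b1, 0.0091 for Slc27a2, 0.0107 for Slc16a1 and 0.0127 for Slc37a4. It was 0.0266 for Slc4a7, 0.0306 for Slc25a30, 0.0466 for Slc29a1 and 0.0482 for Slc6a2.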

How the results depend on the processing

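Of 114 member results that passed, 84 kept their call in all alternatives run, 30 lost it in at least 1 and 0 changed direction. Of 65 that did not pass, 43 kept side and direction, 6 gained a call and 16 changed direction in at least 1. The count with Targretin in lung (1) was 0 with no filter, 2 with the larger pseudocount, 0 with the replicate block and 0 without the doubted arrays. With Targretin in mammary gland (9) it was 5 without the doubted arrays, and for Targretin minus 9cRA (7) it was 4 with the replicate block. The cause was not tested.

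With 1 array left out, counts ranged from 2 to 4 (Targretin), 4 to 5 (9cRA) and 2 to 4 (4HPR) in liver, 0 to 9 for Targretin in lung, and 4 to 12 (Targretin) and 0 to 2 (9cRA) in mammary gland. They ranged from 4 to 6 for Targretin minus 9cRA and 4 to 7 for Targretin minus 4HPR, from 42 to 47, 27 to 39 and 53 to 57 for liver minus lung, mammary gland minus lung and mammary gland minus liver, and from 6 to 13 for organ by agent.

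Differences that changed sign had not passed. Spans are over fits with 1 array left out; Slc37a4 with Targretin in lung and Slc35b1 with 4HPR in mammary gland changed sign under the replicate block only. With Targretin in liver the spans were -0.0464 to 0.0707 for Slc6a13 (-0.0038 after quantile normalization, -0.0464 without the doubted arrays), -0.206 to 0.396 for Slc22a5, -0.207 to 0.113 for Slc4a7 (0.0337 without the doubted arrays), -0.463 to 0.109 for Slc30a1, -0.0238 to 0.405 for Slc16a1 and -0.248 to 0.0160 for Slc35b1. Slc37a4 spanned -0.147 to 0.155 with 9cRA and -0.218 to 0.0823 with 4HPR. In lung, Slc35b1 spanned -0.0091 to 0.0842 with Targretin (-0.0091 without the doubted arrays), Slc37a4 was 0.0366 under the replicate block, and Slc6a2 spanned -0.0208 to 0.212 with 4HPR. In mammary gland, Slc40a1 spanned -0.657 to 0.0538 with Targretin; with 4HPR, Slc27a1 spanned -0.0294 to 0.303 and Slc27a2 -0.0561 to 0.731, and Slc35b1 was 0.0125 under the block. For mammary gland minus lung, Slc27a2 spanned -0.182 to 0.0481 and was 0.175 after quantile normalization.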
